A study of Homo sapiens with 2 samples.

Results

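The 10 genes described here, H3.Y, ZSCAN4, LEUTX, TRIM43, KHDC1L, DUXA, PRAMEF1, PRAMEF12, MBD3L2, and CCNA1, are targets of the transcription factor DUX4, and are 10 of the 33538 genes counted by single-cell RNA sequencing (scRNA-seq) of HCT116, a human colon cancer cell line. They were taken by name from both libraries and were selected on measured values of these same libraries, so their detection, and whether they shared cells with H3.Y, are given as a description. The DAC-treated cells received 0.5 μM of decitabine (5-aza-2′-deoxycytidine, DAC), a cytidine analog that traps DNA methyltransferases, on days 1 and 3 after seeding on day 0, were given medium without DAC on day 5, and were collected on day 7. The mock-treated cells were the same line without DAC. One library of each condition was made from droplets, with transcripts tagged near the poly(A) tail by a unique molecular identifier (UMI), and held 1783 mock-treated and 1751 DAC-treated cells.

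DUX4 is a double homeobox transcription factor that is known to act for a short time in the cleavage-stage embryo, where it switches on a set of genes and endogenous retroviral elements as the embryo's own genome is activated. In most somatic tissues, DUX4 and its targets are silent, and the repeat array that carries DUX4 is kept in methylated, repressed chromatin. Loss of that repression in skeletal muscle is the known basis of facioscapulohumeral muscular dystrophy, in which DUX4 and its targets appear in rare nuclei.

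All 10 genes were detected in DAC-treated cells and 8 of them had no UMI in mock-treated cells. Over the genes with 10 UMIs or more in both libraries together, 5.92% had no UMI in mock-treated cells. Since the genes were selected on this contrast, nothing was read from the difference. One or more of the 10 genes had a UMI in 522 DAC-treated cells (29.8%, 95% interval 27.7 to 32.0%) and 97 mock-treated cells (5.44%, 4.43 to 6.60%). Most of these cells were positive for KHDC1L, and without it the numbers were 174 DAC-treated cells (9.94%, 8.58 to 11.4%) and 1 mock-treated cell. The 10 genes together had 2556 UMIs in the DAC-treated library and 104 UMIs in the mock-treated library, of which 103 were of KHDC1L. Scaled to the UMIs of each library, the sum was 20.8-fold (17.1 to 25.5) higher in DAC-treated cells. Intervals of shares are exact binomial (Clopper-Pearson), those of UMI sums exact Poisson, and those of ratios exact for a pair of counts, and all cover counting error only.

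The mock-treated library held 49911689 UMIs, with a median of 27899 per cell, and the DAC-treated library 59046165 UMIs, with a median of 35340 per cell. When all cells were brought to 10000 UMIs by random drawing, without the 395 mock-treated and 458 DAC-treated cells below that depth, the share of cells with any of the 10 genes was 2.14% in mock-treated and 12.6% in DAC-treated cells. Both libraries shared 12 barcodes. Of 8 markers of colon epithelium, 7 were detected in mock-treated and 8 in DAC-treated cells, with 17419 and 13099 UMIs of EPCAM and 101301 and 252746 UMIs of KRT18. The CPM ratio was 0.636 for EPCAM, 0.916 for CDH1, 2.11 for KRT18, and at least 16.3 for CDX1, which was at 0 in mock-treated cells. Of 9 markers of other cell types, 4 were detected in mock-treated cells (556 UMIs in all, 533 of COL1A1) and 9 in DAC-treated cells (1329 UMIs, 1112 of COL1A1), and PTPRC, CD3E, COL1A2, PECAM1, and HBB were at 0 in mock-treated cells. The CPM ratio was at least 13.0 for PECAM1, 8.73 for VWF, 2.62 for LYZ, and 1.76 for COL1A1, and 6 of the 7 with 10 UMIs or more were 2-fold or more higher, 3 of them without a mock UMI, against 25.4% of all genes. Only 3 UMIs of these 9 markers lay in the 5 DAC-treated cells described later, and their part in the results was not tested. Each condition had 1 library, so mock- and DAC-treated cells were compared without a test.

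Promoter sequence was not used in the selection. RefSeq (GRCh38.p14) gave 11 promoter windows of 300 bases, 250 before and 50 after the start of transcription, for 9 of the 10 genes, and the outline of the motif known for DUX4, TAANNNAATCA, was searched on both strands. It was found in 3 of the 11 windows (27.3%), those of H3.Y, MBD3L2, and 1 of the 2 starts of LEUTX, in 14 of the 51 windows (27.5%) of further DUX4 target genes, and in 312 of 35116 windows over all promoters (0.888%). The 14 include overlapping windows of ZSCAN5B and windows of related MBD3L, TRIM, and RFPL4 genes, so they are not 14 separate promoters. The median GC content was 43.3% for the 11 windows, 43.7% for the 51, and 58.7% over all promoters. Its part in these shares was not tested. None of the 28 windows of other genes that DAC reactivates held the motif. At the share over all promoters, 28 windows would be likely to hold none, so nothing was read from this. The 3 windows are printed for the 250 bases before the start, with the motif in capitals. H3.Y lies at chr5:17654868-17655849 on the minus strand, and the printed bases are chr5:17655850-17656099, with the motif beginning 49 bases before the start. For MBD3L2 they are chr19:7049071-7049320 and for the second start of LEUTX chr19:39778604-39778853, both on the plus strand, and there the motif runs on the opposite strand, so that the capitals read TGATTNNNTTA. A match is a description of these letters and not a measured binding site.
H3.Y: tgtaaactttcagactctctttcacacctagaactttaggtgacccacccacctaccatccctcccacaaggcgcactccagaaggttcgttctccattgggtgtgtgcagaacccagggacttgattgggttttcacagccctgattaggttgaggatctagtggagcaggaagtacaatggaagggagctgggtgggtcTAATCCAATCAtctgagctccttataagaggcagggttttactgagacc
MBD3L2: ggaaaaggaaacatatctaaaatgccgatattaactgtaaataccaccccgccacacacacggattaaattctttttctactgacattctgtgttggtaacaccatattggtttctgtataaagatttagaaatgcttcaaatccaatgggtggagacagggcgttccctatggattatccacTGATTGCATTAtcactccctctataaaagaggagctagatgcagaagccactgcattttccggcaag
LEUTX: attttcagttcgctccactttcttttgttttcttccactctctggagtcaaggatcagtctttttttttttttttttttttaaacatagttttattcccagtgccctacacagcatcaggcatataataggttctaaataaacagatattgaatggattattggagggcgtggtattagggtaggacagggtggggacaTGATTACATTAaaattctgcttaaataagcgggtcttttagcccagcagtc

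The genes are dispersed over the genome, with ZSCAN4, LEUTX, DUXA, and MBD3L2 on chromosome 19, PRAMEF1 (chr1:12791397-12796628) and PRAMEF12 (chr1:12773738-12777906) near each other on chromosome 1, and TRIM43, H3.Y, KHDC1L, and CCNA1 on chromosomes 2, 5, 6, and 13. All are annotated as protein-coding in GENCODE 44. CpG dinucleotides were sparse in these windows. The median was 4 CpGs per window over the 11 windows, against 14 over all promoters and 15 over the other genes that DAC reactivates. CCNA1 differed from the other members, with 35 CpGs in its window and a GC content of 72.7%, against 3 CpGs in the window of H3.Y. The 250 bases before its start, chr13:36431705-36431954 on the plus strand, are printed with each CpG in capitals to set beside the window of H3.Y.
CCNA1: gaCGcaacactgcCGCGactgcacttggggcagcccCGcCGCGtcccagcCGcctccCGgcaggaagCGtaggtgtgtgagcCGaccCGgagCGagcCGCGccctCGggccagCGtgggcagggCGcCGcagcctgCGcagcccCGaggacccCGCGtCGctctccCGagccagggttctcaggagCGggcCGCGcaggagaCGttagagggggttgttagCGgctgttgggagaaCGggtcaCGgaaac

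H3.Y is a primate histone H3 variant that is incorporated into chromatin in place of canonical H3. Its transcripts (ENSG00000269466, named H3Y1 in GENCODE 44) had no UMI in mock-treated cells, and a count of 0 allows a share of up to 0.168% of these cells. In DAC-treated cells, 930 UMIs (871 to 992) were counted in 60 cells (3.43%, 2.62 to 4.39%), at least 262-fold higher, where the limit is taken against 3 counts in the mock-treated library. The UMIs were very unevenly spread. Among the 60 cells, 41 had 1 UMI, 5 had 2 UMIs, and 14 had 3 or more, the number at which the study calls a gene upregulated in a cell. The 4 highest cells had 412, 159, 110, and 101 UMIs and together held 84.1% of all H3.Y UMIs. If every cell had expressed H3.Y in proportion to its total UMIs, 1109 cells would have been without a UMI, and 1691 were. H3F3A and H3F3B, which encode the constitutive variant H3.3, were detected in 1487 and 1677 DAC-treated cells, with CPM ratios of 1.05 and 1.36.

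Among the transcription factors, ZSCAN4, a zinc finger protein of the cleavage-stage embryo linked to telomere maintenance, had 1 UMI in 1 mock-treated cell and 114 UMIs (94.0 to 136.9) in 24 DAC-treated cells (1.37%, 0.880 to 2.03%). Its CPM ratio was 96.4 (17.0 to 3839), an interval that is wide because of the single mock UMI. A single cell held 56 of its UMIs. LEUTX, a paired-like homeobox factor, had 15 UMIs in 5 DAC-treated cells (0.286%, 0.0928 to 0.665%), with 5 UMIs at most in a cell. DUXA, a homeobox gene related to DUX4, had 32 UMIs in 13 DAC-treated cells (0.742%, 0.396 to 1.27%), with 8 UMIs at most. Both were at 0 in mock-treated cells, and the DAC-treated levels were at least 4.23-fold and 9.02-fold higher.

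The PRAME family, leucine-rich repeat proteins encoded by a gene cluster on chromosome 1, gave values held by few cells. PRAMEF1 had 112 UMIs in 7 DAC-treated cells (0.400%, 0.161 to 0.822%), a mean of 16 per positive cell, and its 5 highest cells held 98.2% of them. PRAMEF12 had 368 UMIs (331 to 408) in 34 cells (1.94%, 1.35 to 2.70%), with 195 in its highest cell. Mock-treated cells had no UMI of either gene, and the limits were at least 31.6-fold and 104-fold. PRAME family genes are near-identical copies, and reads that fit several of them cannot be assigned with certainty, so that values of single genes are less certain than the family's sum.

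TRIM43, a tripartite motif protein, had 28 UMIs in 17 DAC-treated cells (0.971%, 0.567 to 1.55%), with 7 in its highest cell. MBD3L2, which is related to the methyl-CpG-binding domain protein MBD3 but lacks the DNA-binding domain, had 87 UMIs in 28 cells (1.60%, 1.07 to 2.30%), of which 8 cells had 3 or more. CCNA1, cyclin A1 of meiotic germ cells, had 80 UMIs in 48 cells (2.74%, 2.03 to 3.62%), and the 5 highest cells held 38.8% of them. All were at 0 in mock-treated cells, with limits of at least 7.89-fold, 24.5-fold, and 22.5-fold. The number of cells with 1 UMI did not follow the number of UMIs, being 41 for H3.Y with 930 UMIs, 37 for CCNA1 with 80 UMIs, and 3 for PRAMEF1 with 112 UMIs.

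KHDC1L, a KH domain gene, differed from the other members in being expressed without DAC. It had 103 UMIs in 96 mock-treated cells (5.38%, 4.38 to 6.54%), with 2 UMIs at most in a cell, and 790 UMIs in 423 DAC-treated cells (24.2%, 22.2 to 26.2%). The CPM ratio was 6.48 (5.27 to 8.04). It was also the most evenly spread, with 17.1% of its UMIs in its 5 highest cells, although 1 cell had 82 UMIs. Its positive cells were deep, with a median of 50361 UMIs. The share at 10000 UMIs drawn per cell was 2.14% in mock-treated and 9.25% in DAC-treated cells. On the same strand it overlaps an annotated gene, ENSG00000243501, so that reads may be split between them. All 10 genes had a CPM ratio or limit of 2 or more, and 25.4% of all genes with 10 UMIs or more reached it, a count that the selection of the genes fixes.

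**Figure D1:**
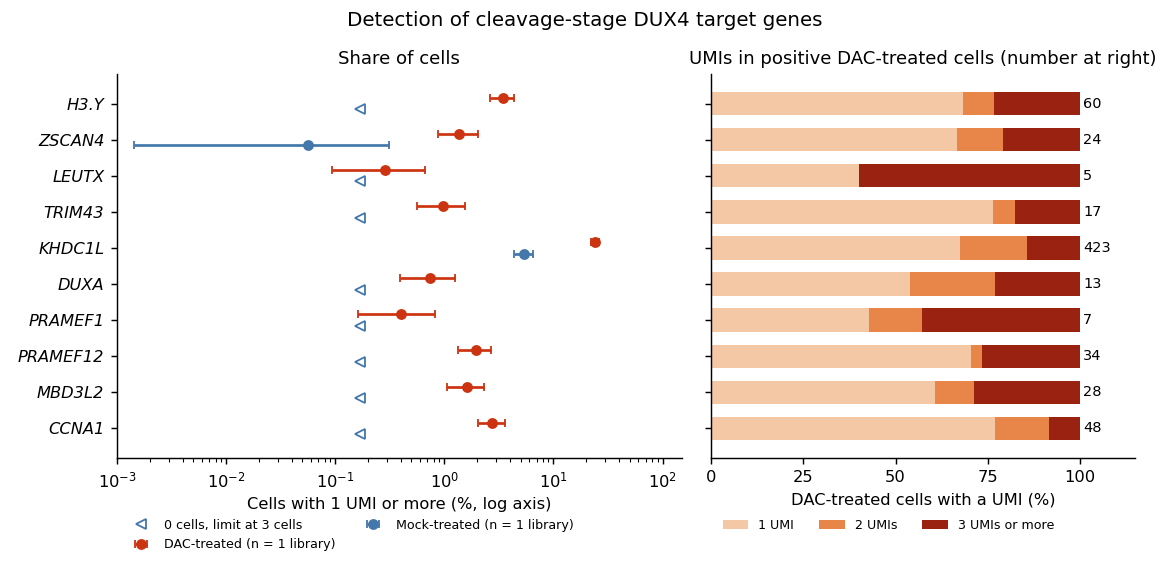
Left, share of cells with 1 UMI or more of each gene (percent, log axis) in the mock-treated (blue) and DAC-treated (red) library, with exact 95% intervals for counting error. Open triangles are set at the share of 3 cells (0.168%) where no mock-treated cell was positive. Right, share of the positive DAC-treated cells with 1, 2, or 3 and more UMIs, with the number of positive cells at the end of each bar. KHDC1L is positive in 96 mock-treated and 423 DAC-treated cells, and cells with 1 UMI outnumber those with 3 or more for each gene other than LEUTX (2 and 3 cells) and PRAMEF1 (3 and 3 cells).

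The genes were next examined for sharing cells. Of the DAC-treated cells, 435 had 1 of the 10 genes, 67 had 2, 9 had 3, 6 had 4, and 1, 1, 1, and 2 cells had 6, 7, 8, and 9 of them. If the genes had been detected independently at their shares within 10 groups of cells of similar depth, 71.8 cells with 2 or more genes and 4.46 cells with 3 or more would be found, and 87 (69.7 to 107.3) and 20 (12.2 to 30.9) were. At exactly 2 genes, 67 cells were found against 67.3 computed, and at exactly 3 genes, 9 against 4.30. Without KHDC1L, 28 cells had 2 or more genes against 14.0, and 14 had 3 or more against 0.547. No mock-treated cell had more than 1 of the genes.

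**Figure D2:**
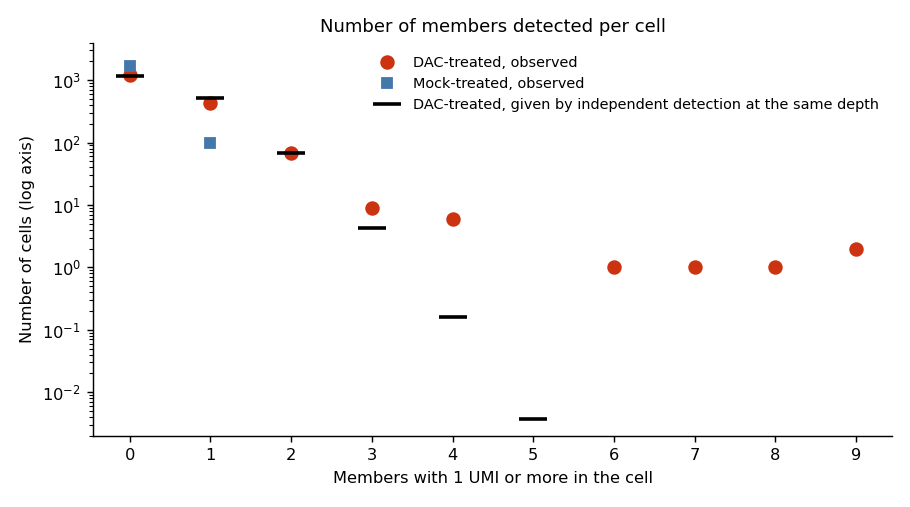
Number of cells (log axis) by how many of the 10 genes had 1 UMI or more in the cell, for DAC-treated cells (red circles) and mock-treated cells (blue squares), with the numbers that independent detection within 10 depth groups gives for DAC-treated cells (black bars). Observed and computed numbers overlap at 2 genes (67 and 67.3 cells), and 5 cells have 6 to 9 genes, where the computed number of cells with 5 or more is 0.00371.

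The 5 cells that had 6 genes or more were set apart by this count and are called the 5 cells below. They were 0.286% of the DAC-treated cells and had 0.207% of the UMIs, but held 1291 of the 2556 UMIs of the 10 genes (50.5%). The first had 9 genes and 501 of their UMIs, with 159 of H3.Y, 107 of PRAMEF12, 82 of KHDC1L, 68 of PRAMEF1, and 56 of ZSCAN4. The fourth had 7 genes and 654 UMIs, with 412 of H3.Y and 195 of PRAMEF12, but no UMI of ZSCAN4, DUXA, or CCNA1. The second had 9 genes and 81 UMIs, the third 8 genes and 22 UMIs, and the fifth 6 genes and 33 UMIs. The proportions of the genes thus differed between the cells, and no cell had all 10. The 10 genes were 2.06% of all UMIs in the first cell and 0.0969% in the third. Without the 5 cells, the log2 CPM ratio or limit was 6.53 in place of 8.03 for H3.Y, 4.08 in place of 6.70 for PRAMEF12, 5.01 in place of 6.59 for ZSCAN4, 3.46 in place of 4.62 for MBD3L2, and 1.88 in place of 2.98 for TRIM43. It moved less for CCNA1 (4.08 from 4.49), KHDC1L (2.51 from 2.70), and DUXA (3.03 from 3.17).

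The 5 cells were not deep, with 16809 to 40840 UMIs against a median of 35362 in the other DAC-treated cells. Mitochondrial genes took 6.43 to 65.1% of their UMIs, against a median of 18.3% in the library, and 2 of them, the second and the fifth, were above 50%. High H3.Y did not always come with the other genes. The cells with 110 and 101 UMIs of H3.Y had 2 and 3 of the 10 genes, with 9 UMIs of PRAMEF12 in the former and 9 of KHDC1L and 2 of CCNA1 in the latter, and a cell with 12 UMIs of H3.Y among 3393 UMIs had no other. Conversely, the seventh cell in the map of the 20 cells with 3 genes or more had 12 UMIs of ZSCAN4 and 3 of PRAMEF12 without a UMI of H3.Y.

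**Figure D3:**
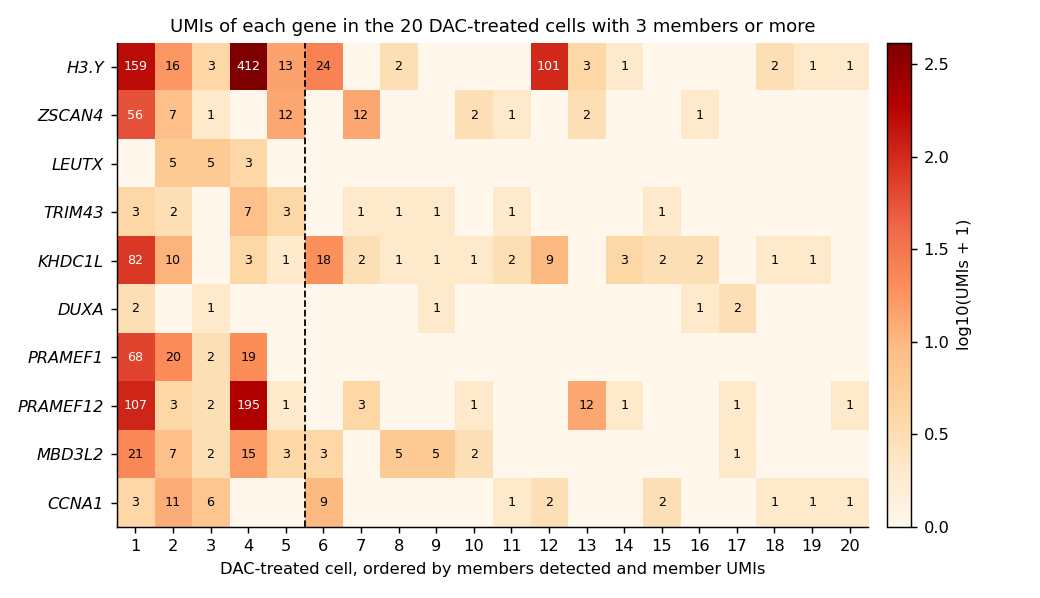
UMI counts of the 10 genes (rows) in the 20 DAC-treated cells with 3 genes or more (columns, ordered by the number of genes and then their UMIs), with color on a log10(UMIs + 1) scale and the count printed in each positive field. The dashed line separates the 5 cells with 6 genes or more, and LEUTX and PRAMEF1 are found only to its left among these 20 cells, while H3.Y reaches 101 UMIs in the twelfth cell.

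Sharing of cells was then divided by the count of H3.Y itself. At least 1 of the other 9 genes was detected in 12 of the 14 cells with 3 UMIs or more of H3.Y (85.7%), in 18 of the 46 cells with 1 or 2 UMIs (39.1%), and in 27.3% of the H3.Y-negative cells. For all H3.Y-positive cells, 32.9% would be given by the shares at the same depth. The 5 cells, chosen for holding many of the genes, each had 3 UMIs or more of H3.Y. Sharing cells with H3.Y was also part of the selection, so nothing was read from these shares. Of the 60 H3.Y-positive cells, 30 had none of the other genes, 26 of them with 1 UMI of H3.Y. H3.Y-positive cells had a median of 40809 UMIs and H3.Y-negative cells 35015. Cells with 1 UMI cannot be told apart from droplets that took up free RNA.

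Beside H3.Y, ZSCAN4 was detected in 6 cells where 0.903 would be given by the shares at the same depth, TRIM43 in 6 (0.617), PRAMEF12 in 9 (1.26), MBD3L2 in 7 (1.09), and CCNA1 in 9 (1.72). For the rarest genes the numbers were 4 (0.354) for PRAMEF1, 3 (0.240) for LEUTX, and 2 (0.617) for DUXA. KHDC1L stood apart, with 23 cells against 17.3, a ratio of 1.33. Beside H3.Y, 5 of the genes were found in 20 cells or more, and 4 of these, ZSCAN4, PRAMEF12, MBD3L2, and CCNA1, reached 3 times the computed number. Over all 16069 genes in 20 DAC-treated cells or more, 0.703% did, and nothing was read from this, since sharing cells with H3.Y was part of the selection.

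Much of this overlap lay in the 5 cells. Without them, the number of cells shared with H3.Y was 6 for CCNA1, 4 for PRAMEF12, 2 each for ZSCAN4, TRIM43, and MBD3L2, and 0 for LEUTX, PRAMEF1, and DUXA. For any of the other 8 genes besides KHDC1L, it was 17 cells against 4.94 with the 5 cells and 12 against 4.47 without them. The pairs that do not involve KHDC1L numbered 36, and each was found together in at least 3 times the computed number of cells, with a median ratio of 14.1, while the 9 pairs with KHDC1L had ratios from 1.33 to 2.83. The computed numbers of the 36 pairs were mostly below 1 cell, and many pairs rest on the same 5 cells. The share over all pairs of genes was not computed. Since sharing cells with H3.Y was part of the selection, nothing was read from this count. Of the 36 pairs, 20 still shared a cell without the 5 cells. Leaving out these cells, which were chosen for holding many of the genes, lowers the overlap by construction.

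**Figure D4:**
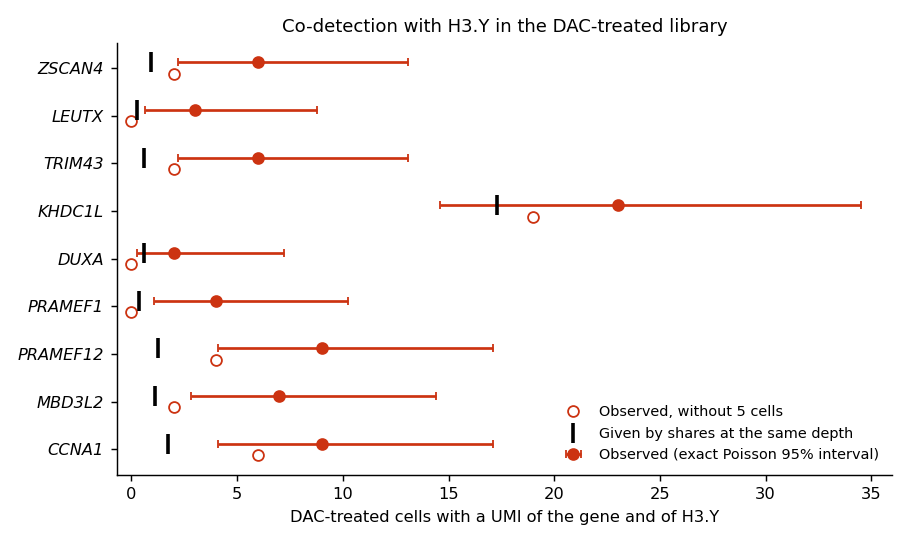
Numbers of DAC-treated cells positive for both H3.Y and each other gene (filled circles, exact Poisson 95% intervals), the same without the 5 cells (open circles), and the number given by the product of the shares within 10 depth groups (black bars). CCNA1 and PRAMEF12 are each found in 9 H3.Y-positive cells, and LEUTX, DUXA, and PRAMEF1 are at 0 once the 5 cells are left out.

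Further DUX4 targets, a list of 57 genes of which 56 were found by name, are outside the rule that took the 10 genes, although the list was also written with earlier results of these data known. In mock-treated cells 10 of them were detected and in DAC-treated cells 46. Of the 26 with 10 UMIs or more over both libraries, 23 were 2-fold or more higher and 0 were 2-fold or more lower. However, 22 of the 26 reached 10 UMIs through their DAC-treated counts, and 18 of these had no UMI in mock-treated cells, which fixes them above 2-fold, so nothing was read from this count. Of the 4 with 10 mock UMIs or more, SNAI1, ZNF217, ZNF296, and RFPL2, 1 was 2-fold or more higher. Without the 5 cells, 13 of the further targets had 10 UMIs or more, and 10 of these were 2-fold or more higher. With all cells, 25.4% of all genes were. Those of the 13 without a mock UMI are again fixed above 2-fold, so nothing was read from this count either.

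Many of the UMIs of these further targets lay in the 5 cells, which had been chosen by the 10 genes alone. The 5 cells had 11 to 36 of the 56 further targets, and the other DAC-treated cells had a median of 1 and 13 at most. Of all UMIs of the further targets, 846 of 3778 (22.4%) were in the 5 cells, which had 0.207% of the UMIs of all genes. The first cell alone held 511 of the 846, and the third and the fifth held 28 and 35. Of the 26 further targets with 10 UMIs or more in DAC-treated cells, 20 had 10% or more of their UMIs in the 5 cells, against 0.631% of all 18070 genes with as many UMIs. However, 13 of the 20 had fewer than 10 UMIs elsewhere, so that they passed the minimum through the 5 cells and could not be under 10%, and nothing was read from this count. The other 13 of the 26 had 10 UMIs or more outside the 5 cells, a minimum that was chosen after the data were seen and leaves out the most concentrated genes. Of these, 7 had 10% or more of their UMIs in the 5 cells, against 0.377% of 18024 genes that met the same minimum, and the median share was 12.4%, against 0.0457%. The 7 were TRIM49B, PRAMEF14, RFPL2, RFPL4A, RFPL4AL1, RFPL4B, and SLC34A2. RFPL2 had 13 of its 26 UMIs there, all in 1 of the 5 cells, and several of the 7 are related RFPL genes. The 18024 genes were not matched to the further targets by their number of UMIs. Since related genes may share reads with the 10 genes, the targets were also divided by name, with all genes of each group summed whatever their UMIs. Those named PRAMEF, MBD3L, TRIM, DUX, or ZSCAN had 56.7% of their UMIs in the 5 cells. The others had 467 of 3110 UMIs there, with 49.9% for those without a mock UMI and 4.14% for those with one. These shares rest on few genes. RFPL4B and SLC34A2 held 165 and 161 of the 369 UMIs behind the former. SNAI1, ZNF217, and ZNF296 had 528, 917, and 647 of the 2370 UMIs of those with a mock UMI. No test was made of these values.

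The 20 PRAMEF genes besides PRAMEF1 and PRAMEF12, which helped to choose the 5 cells, together had 320 UMIs in 38 DAC-treated cells and none in mock-treated cells, and 76.9% of the UMIs were in the 5 cells. Of these genes, PRAMEF14 had 138 UMIs in 17 cells, PRAMEF5 had 39 in 11 cells, PRAMEF13 had 38 in 4 cells, and PRAMEF8 had 27 in 9 cells, of which only 2 UMIs were in the 5 cells. MBD3L2B and the genes from MBD3L3 to MBD3L5, without MBD3L2, had 224 UMIs in 50 cells, 61.6% of them in the 5 cells. MBD3L3 had 49 UMIs in 8 cells, among them all of the 5 cells. TRIM48, TRIM49, TRIM51, TRIM64, and their copies, ubiquitin ligase-like genes related to TRIM43, had 105 UMIs in 29 cells, 63.8% in the 5 cells.

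The RFPL4 genes, ret finger protein-like, were spread more widely, with 536 UMIs in 170 cells and 36.2% in the 5 cells. RFPL4B had 400 UMIs in 116 cells and 132 in its highest cell, and was at 0 in mock-treated cells. SLC34A2, a sodium-dependent phosphate transporter, had 254 UMIs in 46 cells and none in mock-treated cells, with 63.4% in the 5 cells. TPRX1, a paired-like homeobox gene, had 16 UMIs in 5 DAC-treated cells, 2 of them among the 5 cells, and the homeobox gene DUXB had 4 UMIs in 2 of the 5 cells. ZSCAN5B and ZNF280A, zinc finger genes, were found in more cells, with 173 and 131 UMIs in 108 cells each and 4.05% and 2.29% of the UMIs in the 5 cells. SNAI1, ZNF217, and ZNF296, known to be expressed outside the embryo too, had CPM ratios of 1.72 (1.48 to 2.0), 1.02 (0.925 to 1.12), and 2.39 (2.05 to 2.79).

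**Figure D5:**
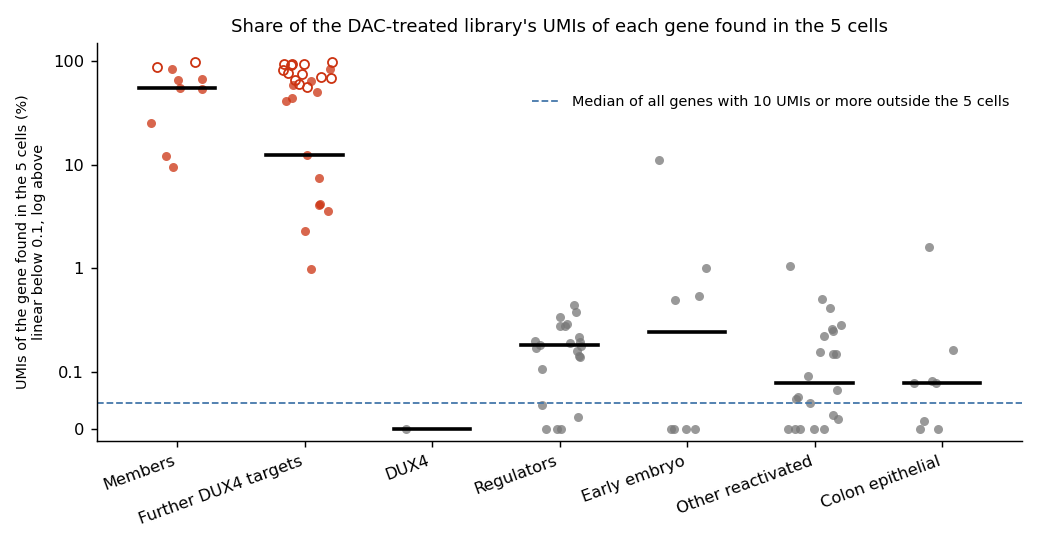
Share of the UMIs of each gene in the DAC-treated library that lay in the 5 cells with 6 of the 10 genes or more (percent, linear below 0.1 and log above), for genes with 10 UMIs or more, by gene list. Filled circles have 10 UMIs or more outside the 5 cells, open circles fewer, and the medians of each list (black) and of all genes (dashed, 0.0457%) are over the former. The 10 members, at left, chose the 5 cells and are shown as a description, the 13 filled further DUX4 targets have a median of 12.4%, and the other genes that DAC reactivates have a median of 0.0803%.

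DUX4 itself was detected at a low level and outside the 5 cells. It was at 0 in the mock-treated library and had 42 UMIs in 34 DAC-treated cells, with 3 in the highest, at least 11.8-fold higher. None of the 42 UMIs was in the 5 cells, and 1 DUX4-positive cell was H3.Y-positive, where 1.17 would be given by the shares. The 5 cells had 0.207% of all UMIs, so that none of 42 would be likely there, and nothing was read from this. Any of the 10 genes was detected in 14 of the DUX4-positive cells, where 11.7 would be given. DUX4 lies in a repeat array at the end of chromosome 4 with copies elsewhere, and reads that fit several copies may not be counted, so that its values are uncertain. Of 22 regulators of DUX4 or its repeat array, 5 were 2-fold or more higher and 0 were 2-fold or more lower, against 25.4% and 8.39% of all genes, and none had 10% or more of its UMIs in the 5 cells. The highest of the 22 were DPPA4 and DPPA2, embryonic chromatin factors. DPPA4 had 220 UMIs in 151 cells and a ratio of 186 (33.0 to 7378), and DPPA2 had 303 UMIs in 227 cells and was at least 85.4-fold higher. The lowest were HDAC1 at 0.695 (0.669 to 0.723) and DNMT3A at 0.822 (0.709 to 0.954).

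A list of genes of pluripotency and the early embryo held 8 with 10 UMIs or more in DAC-treated cells. Among these 8, only DPPA3 was past 10% in the 5 cells, with 11.1% of 18 UMIs. Genes outside the list, such as CPHXL and NANOGNB, were also past 10%. Over both libraries, 10 of the listed genes had 10 UMIs or more. Of these, 5 were 2-fold or more higher, 3 of them without a mock UMI, and 1 was 2-fold or more lower, against 25.4% and 8.39% of all genes. ZFP42 (REX1) was at 0 in mock-treated cells and had 1073 UMIs in 534 DAC-treated cells, at least 302-fold higher, and DPPA5 had 183 UMIs in 137 cells, at least 51.6-fold higher, with 0 UMIs of either in the 5 cells. KLF4 had a ratio of 0.955 (0.890 to 1.03), and NANOG was lower, with 49 UMIs in mock-treated and 6 in DAC-treated cells, a ratio of 0.104 (0.0362 to 0.242). Of 22 other genes that DAC reactivates, mostly cancer-testis genes, 20 were 2-fold or more higher, 9 of them without a mock UMI, and 0 had 10% or more of their UMIs in the 5 cells. Among those with a mock UMI, the highest ratios were those of UCHL1, 4897 (879 to 193447), and MEG3, 4800 (1328 to 39637), and the lowest were those of MAGEA3, 1.64, and MAGEB2, 1.67. Genes without a mock UMI have lower limits alone, such as MAGEA4 at 2299, and cannot be ranked against them. The 5 cells had 4 to 13 of the 23 genes of this list, and the other DAC-treated cells had a median of 7.

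The genes outside the 10 with the highest ratio of observed to computed co-detection with H3.Y, among 11949 genes in 20 DAC-treated cells or more and 5 H3.Y-positive cells or more, were ranked over the cells of the DAC-treated library. They were AC112907.3 (7 cells, ratio 6.88), SLC34A2 (12 cells, 6.52), NEFM (5 cells, 6.30), PYY (5 cells, 5.61), FAM53A (5 cells, 5.61), ZNF836 (7 cells, 5.28), RNF150 (5 cells, 5.03), AC092171.4 (5 cells, 4.89), MBD3L2B (8 cells, 4.73), and OR5H14 (5 cells, 4.29). SLC34A2 and MBD3L2B are a DUX4 target and a paralog of MBD3L2, and they had 63.4% and 52.9% of their UMIs in the 5 cells. AC112907.3, ZNF836, RNF150, AC092171.4, and OR5H14 had no UMI there. With 5 to 12 shared cells each, the ranking rests on few cells. With 20 depth groups, 9 of the 10 were again among the first 10. All 10 were detected in fewer than 50 cells, so that requiring 50 cells left 0 of them.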

How the data were processed

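Single cells of mock-treated and DAC-treated HCT116 (n = 1 library each) were analyzed. According to the submitters' processing notes, reads were processed using Cell Ranger and hg38. The authors deposited whole UMI counts, not normalized, and the annotation release is not given in the sources used here. All deposited cells were used, and doublets were not called. Genes were matched by Ensembl identifier, and positions were taken from GENCODE 44. The members and the gene lists were chosen with earlier results of these data known.

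A gene was detected with 1 UMI or more. Library sums were scaled to total UMIs (CPM). Where a gene had no UMI in mock-treated cells, the ratio is a lower limit against 3 counts per library. Shares and sums have exact 95% intervals for counting error only, and no test was made between conditions. Co-detection was computed as the product of shares within 10 depth groups of equal size. Genes compared between libraries had 10 UMIs or more over both. The named genes were the 10 members, DUX4, further targets detected in 3 DAC-treated cells or more (the others, such as DUXB, were named after their values were seen), the 10 genes with the highest co-detection with H3.Y, and of each other list the 2 highest and 2 lowest CPM ratios. Further targets under this rule that are not named singly are given by counts and families. Drawing 10000 or 20000 UMIs per cell, other detection thresholds, scalings, depth groups, and filters on cells were tried. Leaving out the 5 cells with 5 members or more, and leaving out KHDC1L, were chosen after seeing the data. The computations were tested on simulated data. Python 3.11.15, numpy 2.4.6, scipy 1.17.1, pandas 2.3.3, and matplotlib 3.10.9 were used.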

Additional observations from a re-analysis of the deposited data

How the results depend on the processing

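The share of cells with any of the 10 genes, 5.44% in mock-treated and 29.8% in DAC-treated cells, was 2.14% and 12.6% with 10000 UMIs drawn per cell, 4.06% and 22.9% with 20000, 0% and 4.57% at 3 UMIs or more, 7.32% and 42.0% without cells under 10000 UMIs or over 50% mitochondrial UMIs, and 0.0561% and 9.94% without KHDC1L. The log2 CPM ratio of the sum, 4.38, was 4.74 as a mean of per-cell CPM and 3.37 without the 5 cells. Observed over computed co-detection of H3.Y with any other gene, 1.52, was 6.23 at 2 UMIs or more. For cells with 2 genes or more, 1.21, it was 2.18 at 2 UMIs or more and 2.0 without KHDC1L. The further targets 2-fold or more higher were 23 of 26 with 10 UMIs or more, and 10 of 13 without the 5 cells, since fewer genes then reached 10 UMIs. In both counts, genes without a mock UMI are fixed above 2-fold. Those with 10% or more of their UMIs in the 5 cells were 20 of 26, and 7 of the 13 with 10 UMIs or more outside these cells. The 113 genes at 3 times the computed co-detection with H3.Y became 5 when 50 positive cells were required. Without the 5 cells, co-detection with H3.Y was 0 for LEUTX, DUXA, and PRAMEF1, since the shared cells were left out. Median-of-ratios scaling moved every log2 ratio by -0.18. Without cells over 20% mitochondrial UMIs, the log2 limit of PRAMEF1 was 3.09 in place of 4.98, that of MBD3L2 3.85 in place of 4.62, and that of DUXA 2.56 in place of 3.17, and ZSCAN4, whose only mock-treated cell was thereby left out, had a limit of 3.47 in place of a ratio of 6.59. The same filter on depth and mitochondrial UMIs as above gave ZSCAN4 a limit of 4.67. As a mean of per-cell CPM, TRIM43 was at 4.69, PRAMEF12 at 7.69, MBD3L2 at 5.78, CCNA1 at 6.22, and DUXA at 2.57. All 66 log2 ratios or limits of single members computed under the alternatives were above 1, and for LEUTX and PRAMEF1 none was computed without the 5 cells, where 3 UMIs or fewer were left. No paired analysis was possible because each condition had 1 library. The 5 cells and low counts of most genes limit the precision.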

Other observations

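Other genes were also concentrated in the 5 DAC-treated cells with 6 or more of the 10 cleavage-stage genes. Of 114 genes with 10% or more of their UMIs there, 34 had a UMI in 3 or more of the 5 cells. Of the 34, 22 had 10 UMIs or more elsewhere, and the others could not be under 10%. The 34 were 9 of the members, 15 further DUX4 targets, and 10 genes in no list, which are CPHXL, MBD3L2B, FAM90A1, ALPG, FRG2C, NEFM, AC233724.15, AC233724.6, RRAD, and KCTD12 and were named after their values were seen. CPHXL, a homeobox gene, had 50 UMIs in 4 DAC-treated cells and none in mock-treated cells, and 48 of the UMIs were in 3 of the 5 cells. It is the only one of the 10 genes in no list with fewer than 10 UMIs elsewhere. MBD3L2B had 174 UMIs in 47 cells, 52.9% of them in the 5 cells, and at least 1 UMI in each of them. FAM90A1, a member of a repeated gene family, had 48 UMIs in 28 cells and 35.4% in the 5 cells, and was detected in mock-treated cells, with 15 UMIs. Genes with high shares in 1 cell alone were also present, such as HSPA6, a stress-inducible heat shock gene, with 79.6% of 108 UMIs.

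Of the 20 cells with 3 genes or more, 3 were barcodes with few UMIs. The tenth had 741 UMIs, of which 6 were of ZSCAN4, MBD3L2, KHDC1L, and PRAMEF12, and 6 further DUX4 targets were detected in it. The thirteenth had 1671 UMIs, of which 17 were of PRAMEF12, H3.Y, and ZSCAN4, and 7 further targets were detected in it. The twentieth had 2305 UMIs, with 1 UMI each of H3.Y, PRAMEF12, and CCNA1 and 2 further targets. Mitochondrial genes took 1.35%, 0.598%, and 65.3% of their UMIs.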
